A study of Rattus norvegicus with 4 samples.

Results

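Antiviral interferon-stimulated genes were followed as a group of 39 effectors that cells make in answer to interferon. They were a list of gene names, with the STAT and IRF factors, the chemokines and the MHC genes left out, and were found on the arrays by the gene symbol of the platform annotation. Of the 39, 35 had a probe set under their own symbol, and Ddx58 was found under its other name, Rig1, through its Entrez number. All 36 passed the filter on low signal, among 9349 genes tested in all. Gbp5, Trim21 and Xaf1 were not analysed here.

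The cells, labelled as mast cells, were selected with AA4, an antibody to rat mast cells, from the lymph nodes that drain the pancreas. Both groups were female BioBreeding rats at day 65. One group was DRlyp/lyp, diabetic prone, homozygous for the lyp mutation that leaves few peripheral T cells. The other was DR+/+, diabetic resistant, with the normal allele. The comparison addressed how mast cells at this site differ between prone and resistant rats. Each group was a single RNA pool of 8 animals. It went through 2 independent amplifications, each put on its own Affymetrix Rat Genome 230 2.0 array, so n = 2 below counts arrays of 1 pool. An adjusted p therefore weighs the spread between amplifications and compares the 2 pools, not the strains, and the small number of arrays limits its precision.

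Type I interferons are secreted when a cell senses viral RNA or DNA. Interferons signal through receptors and Janus kinases to transcription factors, which bind the interferon-stimulated response element after type I interferon and the gamma-activated site after interferon gamma. The induced proteins detect viral nucleic acid, block entry, copying and release of virus, and tag or destroy foreign proteins and vacuoles. Macrophages, dendritic cells and lymphocytes of a lymph node use the same programme, so none of these genes marks mast cells.

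The 4 arrays had the same trimmed mean signal of 150.1. Kit, the stem cell factor receptor of mast cells, lay below the filter of 28.3 signal units on all 4. A mast cell marker list with 8 genes tested held 2 called lower and 2 called higher in DRlyp/lyp cells, and its summed signal was 2716.4 to 2809 against 1795.2 to 1806. The excess was in the protease Mcpt1 (1664.8 and 1601.9 against 668.9 and 655.4), and without it the sums were 1114.5 to 1144.2 and 1137.1 to 1139.8. The tryptases were the genes called lower, Tpsab1 at 29.8 and 19.9 against 102.8 and 77, and Tpsb2 at 34.4 and 28.7 against 92.6 and 89.4. Markers of macrophages, B cells and T cells also gave signal in both pools. Of 8 macrophage markers tested, 5 were lower, among them C1qa, C1qb and C1qc, and 2 higher, Cd68 and Mrc1. Their summed signal was 6950 to 6998.6 in the DRlyp/lyp pool and 9913.4 to 10637 in the DR+/+ pool. Of 4 B cell markers tested 2 were lower (sum 7623.6 to 8174.8 against 9409 to 10336.5). Of 9 T cell markers 8 were higher (7597 to 7639 against 1662.9 to 1731.1). Among 7 NK cell markers 2 were lower and 2 higher (4729 to 4794.2 against 4219.3 to 4561.8). Dendritic cell markers, 3 tested, held none lower and 1 higher (1065.2 to 1179.6 against 902.5 to 918). All 6 exocrine pancreas markers were higher (6660.8 to 6935.2 against 145.2 to 148.3), as were both erythroid markers (1550.7 to 1664.1 against 137.1 to 151.9) and 3 of 4 neutrophil markers (3106.4 to 3195.5 against 1644.2 to 1961.2). The 3′ minus 5′ log2 signal of beta-actin was 4.43 to 4.55 in the DRlyp/lyp pool and 3.01 to 3.1 in the DR+/+ pool, and that of GAPDH 2.44 to 2.49 and 1.57 to 1.74. These marker sums and the 3′ to 5′ values differed between the pools beside the interferon genes described next, and their part in the result was not tested. In such a pool, fewer cells of a type and less RNA per cell cannot be told apart.

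Most (55.6%) of the interferon-stimulated genes were lower in the AA4+ cells of the DRlyp/lyp pool. Among the 36 members 20 were called lower and 2 higher at an adjusted p under 0.05 (limma, 1 probe set per gene). The share called higher was 5.56%, and the background was 21.1% of all genes tested for lower and 20.9% for higher. The members were chosen with earlier results of these data known, so the difference from the background is a description. Their median log2 difference, DRlyp/lyp minus DR+/+, was -0.47, while the median over all genes was 0 and 49.9% of all genes had a negative difference. The 20 called lower fell by 1.27-fold (Samhd1) to 3.79-fold (Mx2), and 5 of them by at least 1 on the log2 scale, a size reached by 4.65% of all genes. Both DRlyp/lyp arrays lay below both DR+/+ arrays for 26 of the 36 genes (72.2%), as for 36.4% of all genes, and above both for 5 (13.9%), as for 35.4%. The arrays of the pools overlapped for Oas1a, Oasl, Isg20, Ifitm3 and Isg15.

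The count moved most with the filter and the variance model. With no filter on dim probe sets 5 members were called lower (13.9%) and 1 higher (2.78%), where 3.71% and 3.62% of all genes were. Without the intensity trend of the variances 12 were lower (33.3%) and 2 higher (5.56%), where 12.7% and 11.9% of all genes were. With each array centred on its median 23 were lower and 2 higher, where 26.1% and 14.4% of all genes were. Of all calls, 35.6% were then higher, against 49.8% with the deposited scaling.

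**Figure D1:**
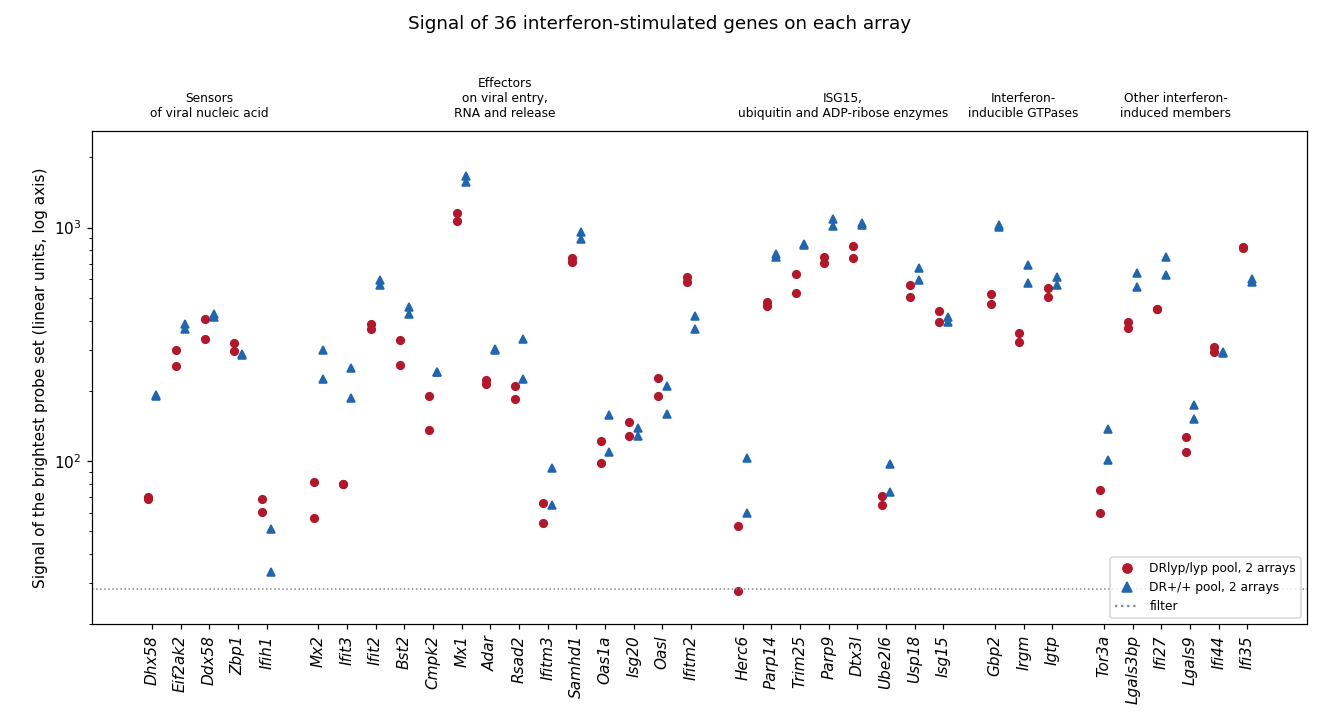
Signal of the brightest probe set of each of the 36 genes on each array (log axis, linear signal units), red circles for the 2 DRlyp/lyp and blue triangles for the 2 DR+/+ arrays, grouped by role and ordered by difference within a role. The dotted line is the filter of 28.3. For 26 genes both red circles lie below both blue triangles.

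**Figure D2:**
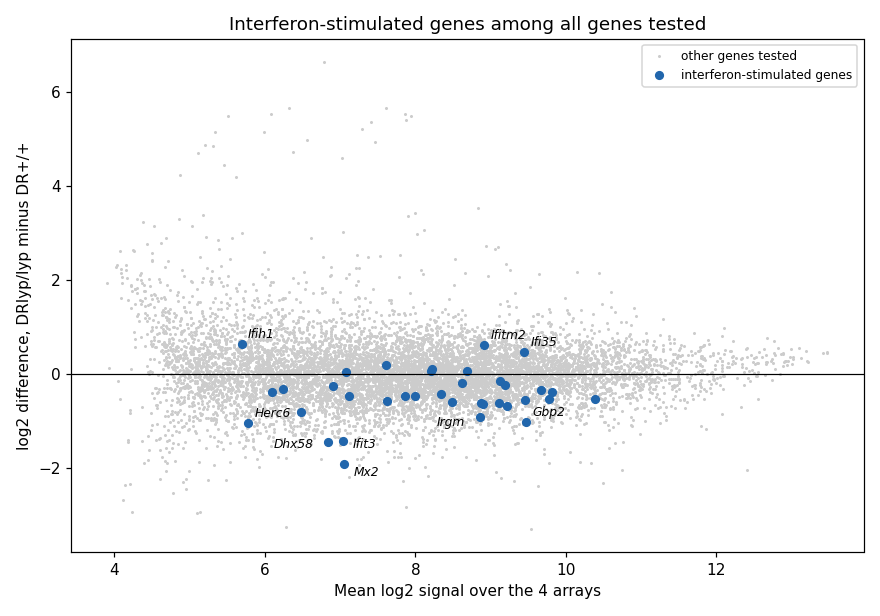
Log2 difference, DRlyp/lyp minus DR+/+, against the mean log2 signal over the 4 arrays for the 36 interferon-stimulated genes (blue) and all other genes tested (grey), 1 probe set per gene. The members have a median of -0.47 and range from -1.92 for Mx2 to 0.63 for Ifih1.

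Promoters of 31 members were in the RefSeq promoter table (GRCr8), 28 of them of genes on the arrays. The 250 bases before the start were searched on both strands for GAAANNGAA, the core of the interferon-stimulated response element, and for TTCNNNGAA, the gamma-activated site. The first motif was present in 21 of the 31 promoters (67.7%) and in 7.99% of all 27457 promoters of that length, and the second in 7 (22.6%) against 7.52%. Within 100 bases of the start, the first was found in 18 of 31 (58.1%) and in 3.04% of all promoters. Whether the motif's share differs by outcome was not tested. It stood in 9 of 16 promoters of genes called lower, 8 of 10 of genes not called and 1 of 2 of genes called higher. A match describes the letters and shows no binding.

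The 100 bases before the start are shown for 6 members with the motif, so that genes of different outcome can be set side by side. Gbp2 (chr2:234005627-234005726, plus strand), Irgm (chr10:33742579-33742678, minus strand) and Ifit3 (chr1:241527226-241527325, plus strand) were called lower. Ifi44 (chr2:243303841-243303940, minus strand) and Oas1a (chr12:41330366-41330465, plus strand) were not called, and Ifitm2 (chr1:205482349-205482448, minus strand) was called higher. Each runs 5′ to 3′ towards the gene, with matches to the response element core in capitals, and 2 matches in Oas1a overlap.
Gbp2: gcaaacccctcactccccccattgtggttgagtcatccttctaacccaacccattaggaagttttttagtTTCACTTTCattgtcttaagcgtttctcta
Irgm: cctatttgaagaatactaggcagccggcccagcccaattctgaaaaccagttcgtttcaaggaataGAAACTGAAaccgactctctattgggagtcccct
Ifit3: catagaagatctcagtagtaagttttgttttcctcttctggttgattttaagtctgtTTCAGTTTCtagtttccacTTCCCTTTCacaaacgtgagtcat
Ifi44: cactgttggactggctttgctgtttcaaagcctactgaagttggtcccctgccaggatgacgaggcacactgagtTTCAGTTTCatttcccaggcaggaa
Oas1a: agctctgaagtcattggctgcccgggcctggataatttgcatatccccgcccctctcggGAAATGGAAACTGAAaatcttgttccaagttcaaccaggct
Ifitm2: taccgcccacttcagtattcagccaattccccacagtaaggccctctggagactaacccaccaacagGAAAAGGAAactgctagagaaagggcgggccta
The match began 30 bases before the start in Gbp2, 34 in Irgm, 25 in Ifi44 and 33 in Ifitm2. Ifit3 had matches beginning 43 and 24 bases before it and Oas1a 41 and 35. The match in Gbp2 (TTCACTTTC) and those in Ifit3 and Ifi44 lie on the opposite strand to those in Irgm, Oas1a and Ifitm2.

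Sensors of viral nucleic acid differed among themselves. Of 5 tested, Dhx58 and Eif2ak2 were called lower and none higher, against 21.1% and 20.9% of all genes. Dhx58, the helicase LGP2 that tunes RIG-I and MDA5, read 68.9 and 70 on the DRlyp/lyp arrays and 191.1 and 189.3 on the DR+/+ arrays. The pools did not overlap, and the difference was -1.45 ± 0.192 (SE) on the log2 scale, 2.74-fold lower (adjusted p = 0.000123). Eif2ak2, the kinase PKR that halts translation on binding double-stranded RNA, read 278.4 ± 30.8 against 376.4 ± 12.8 (SD, n = 2 arrays each; 1.36-fold lower, adjusted p = 0.0204). Leaving out DRlyp/lyp replicate 1 ended this call (-0.33, adjusted p = 0.213), and so did leaving out DR+/+ replicate 2 (-0.40, adjusted p = 0.0649). The helicases that Dhx58 acts on did not pass the test. Ddx58, RIG-I itself, differed by -0.19 (adjusted p = 0.262), with a 95% interval from -0.47 to 0.09. Ifih1, MDA5, had higher values in the DRlyp/lyp pool, 60.5 and 68.5 against 51.3 and 33.6, a difference of 0.63 (adjusted p = 0.128) that passed when DR+/+ replicate 1 was left out (0.94, adjusted p = 0.0463). Zbp1, a sensor of Z-form nucleic acid, differed by 0.10 (interval -0.19 to 0.38).

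Among the 14 effectors on viral entry, RNA and release, 8 were called lower and 1 higher (all genes, 21.1% and 20.9%). Mx2, a dynamin-like GTPase that traps viral components, had the largest fall of all members. It read 81.7 and 57.1 on the DRlyp/lyp arrays and 297.7 and 224.7 on the DR+/+ arrays, a difference of -1.92 ± 0.225 or 3.79-fold (adjusted p = 5.27e-05). Only 0.353% of all genes tested had a lower difference. Ifit3, a scaffold of the IFIT proteins that bind foreign RNA, read 79.6 and 80.1 against 187.1 and 251.2, which is 2.72-fold lower (-1.44 ± 0.2, adjusted p = 0.000182). The DRlyp/lyp arrays of Ifit3 lay within 1 signal unit of each other while the DR+/+ arrays spread over more, and the pools did not overlap.

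The other effectors called lower changed by less. Mx1, the nuclear GTPase that blocks influenza-type viruses in rodents, read 1114 ± 60.8 against 1612 ± 62.6 (1.45-fold lower, adjusted p = 0.000252). Ifit2, an RNA-binding IFIT protein, read 377.4 ± 14.4 against 580.4 ± 18.9 (1.54-fold lower, adjusted p = 0.000846). Bst2, or tetherin, which holds budding virions at the cell surface and is also a marker of plasmacytoid dendritic cells, read 293.1 ± 50.2 against 441.7 ± 21.1 (1.52-fold lower, adjusted p = 0.00515). Of the other plasmacytoid dendritic cell markers with a probe set, both Il3ra arrays of the DRlyp/lyp pool were lower and both Tcf4 arrays higher. The list's summed signal, Bst2 included, was 2360.7 to 2744.1 against 2201.1 to 2390.3, with overlap. Most of it was Tcf4 (2344.3 and 2027 against 1846.2 and 1679.2). Adar, the double-stranded RNA deaminase, fell by 0.47, Cmpk2, a mitochondrial nucleotide kinase, by 0.58, and Samhd1, which depletes the nucleotides a virus needs, by 0.35 on the log2 scale. Of these calls, 4 were lost when 1 array was dropped. Bst2 reached an adjusted p of 0.0934 (-0.43) when DRlyp/lyp replicate 2 was dropped. With DRlyp/lyp replicate 1 or 2 dropped, Adar differed by -0.50 (0.0943) and -0.44 (0.126), and Samhd1 by -0.38 (0.0611) and -0.32 (0.0945), close to their values over all arrays. Cmpk2 reached an adjusted p of 0.278 (-0.33) with DRlyp/lyp replicate 1 dropped and 0.0788 with either DR+/+ array dropped, and 0.079 as the mean of its probe sets.

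Ifitm2, a membrane protein that hinders fusion of virus with the endosome, went the other way. It read 583.8 and 612.3 on the DRlyp/lyp arrays and 366.8 and 416.4 on the DR+/+ arrays, 1.53-fold higher with no overlap (0.61 ± 0.112, adjusted p = 0.00117). Its near relative Ifitm3 read 54.1 and 65.9 against 93.9 and 64.6, so the pools overlapped and the difference of -0.38 did not pass the test (adjusted p = 0.296, interval -0.99 to 0.22). The IFITM genes are near copies, so how the probe sets divide their transcripts is uncertain.

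The remaining effectors did not pass the test. Rsad2, viperin, which makes a chain-terminating nucleotide, read 185.3 and 210.2 against 332 and 224 (-0.47, adjusted p = 0.0673), and leaving out DR+/+ replicate 2 gave -0.75 (adjusted p = 0.00817). Centring each array on its median also brought Rsad2 past the threshold (-0.58, adjusted p = 0.0215). The pools did not overlap for Rsad2, but the DR+/+ arrays stood far apart. The oligoadenylate synthetase Oas1a differed by -0.26, its relative Oasl by 0.18 and the exonuclease Isg20 by 0.04, each with overlapping arrays and adjusted p values of 0.392, 0.467 and 0.872.

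Isg15 and the enzymes of ISG15, ubiquitin and ADP-ribose were called lower in 5 of 8 cases and higher in none. Over all genes these shares were 21.1% and 20.9%. Parp14, an ADP-ribosyltransferase, read 470.3 ± 15.3 against 759.4 ± 13.5 (1.62-fold lower, adjusted p = 0.000208). Parp9 and Dtx3l, whose proteins form 1 ubiquitin ligase complex, read 727.3 ± 28.3 against 1052 ± 51.1 and 788.7 ± 68.3 against 1035 ± 11.9, differences of -0.53 and -0.39 with adjusted p values of 6e-04 and 0.00497. Trim25, the ubiquitin ligase that activates RIG-I, read 579.9 ± 77.6 against 847 ± 7.14 (1.47-fold lower, adjusted p = 0.00173). Herc6, the rodent ligase for ISG15, read 27.8 and 52.5 on the DRlyp/lyp arrays and 102.9 and 60.2 on the DR+/+ arrays. The pools of Herc6 came close to each other and 1 array lay below the filter. Its difference of -1.04 ± 0.369 (adjusted p = 0.0417) became -0.58 (0.332) when DRlyp/lyp replicate 1 was dropped and -0.66 (0.273) when DR+/+ replicate 1 was. Dtx3l was not called once DRlyp/lyp replicate 2 was dropped (-0.31, adjusted p = 0.087).

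ISG15 itself, the ubiquitin-like protein that Ube2l6 and Herc6 attach and Usp18 removes, showed nearly equal signal. Isg15 read 440.3 and 395.2 on the DRlyp/lyp arrays and 393.7 and 413.4 on the DR+/+ arrays, a difference of 0.05 with a 95% interval from -0.21 to 0.30 (adjusted p = 0.777). Usp18, which removes ISG15 and restrains the type I receptor, differed by -0.24 (adjusted p = 0.105), and Ube2l6, the conjugating enzyme for ISG15, by -0.32 (adjusted p = 0.341). Both DRlyp/lyp arrays were lower for Usp18 and Ube2l6, and Usp18 passed with each array centred on its median (-0.35, adjusted p = 0.0398).

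Interferon-inducible GTPases attack vacuoles that hold microbes and answer mainly to interferon gamma. They were called lower in 2 of 3 cases, against 21.1% of all genes. Gbp2, a guanylate-binding protein, read 519.3 and 472.3 against 1010.4 and 1024.3, 2.05-fold lower (-1.04 ± 0.0953, adjusted p = 8.84e-06). Each pool's arrays for Gbp2 lay close together. Irgm, an immunity-related GTPase, read 337.2 ± 21.4 against 636.8 ± 79 (1.88-fold lower, adjusted p = 0.000135). Igtp, another of that family, differed by -0.16 (adjusted p = 0.253, interval -0.39 to 0.07).

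Of 6 other interferon-induced members, 3 were called lower and 1 higher, against 21.1% and 20.9% of all genes. Ifi27, a small mitochondrial and nuclear membrane protein, read 447.8 ± 0.566 against 689 ± 85.2 (1.53-fold lower, adjusted p = 0.00114). Lgals3bp, a secreted partner of galectin 3, read 382.7 ± 15.4 against 596.8 ± 59 (1.56-fold lower, adjusted p = 0.00103). Tor3a, an AAA+ ATPase of the torsin family, read 67.65 ± 10.5 against 119.4 ± 25.7 (1.76-fold lower, adjusted p = 0.0199). Tor3a was not called when any of 3 arrays was dropped. The values were -0.97 (adjusted p = 0.0558) and -0.65 (0.162) with DRlyp/lyp replicates 1 and 2 dropped, and -0.59 (0.121) with DR+/+ replicate 2 dropped.

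Ifi35, a leucine zipper protein, was the other member called higher. It read 814.2 and 828.9 on the DRlyp/lyp arrays and 599.9 and 587.6 on the DR+/+ arrays, 1.38-fold higher (0.47 ± 0.0918, adjusted p = 0.00182), with tight duplicates and no overlap. Lgals9, galectin 9, differed by -0.46 (adjusted p = 0.0671, and 0.0336 with median centring) and Ifi44 by 0.05 (adjusted p = 0.801).

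Of the 22 calls among members, 14 held when each array was left out in turn. These were Dhx58, Mx1, Mx2, Ifit2, Ifit3, Trim25, Parp9, Parp14, Irgm, Gbp2, Ifi27 and Lgals3bp, called lower, and Ifitm2 and Ifi35, called higher.

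**Figure D3:**
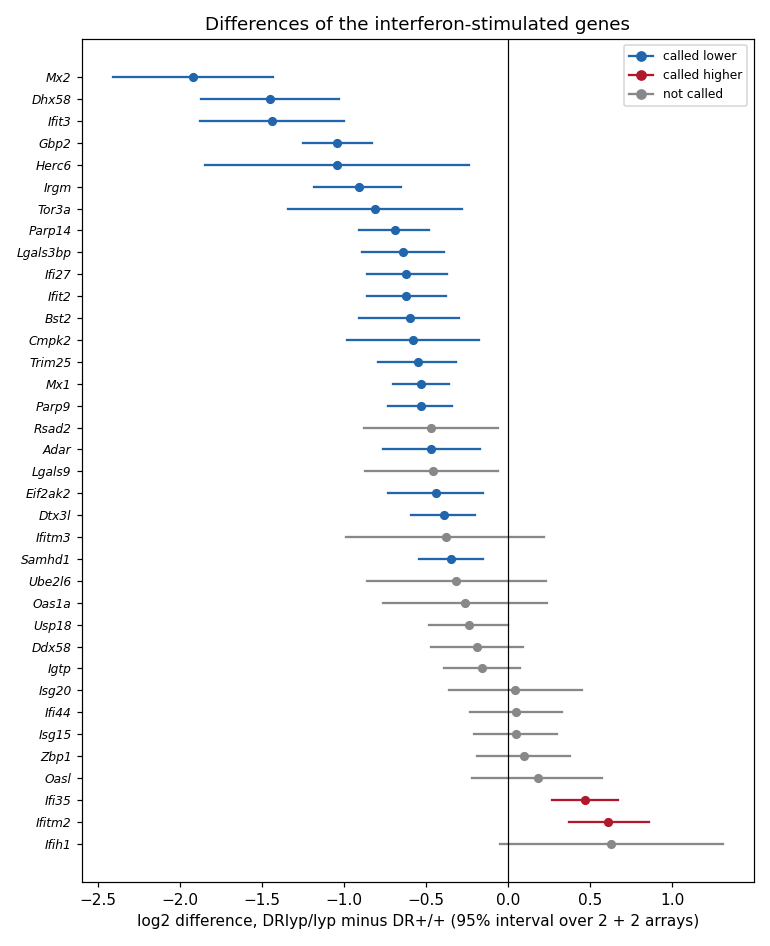
Log2 difference, DRlyp/lyp minus DR+/+, of each of the 36 genes with its 95% interval from the limma fit over 2 arrays per pool, ordered from lowest to highest. Blue marks the 20 genes called lower, red the 2 called higher (Ifi35 and Ifitm2) and grey the 14 not called.

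More than 1 probe set was present for 7 members, which checks the value taken from the brightest. The 7 further sets that were tested all had a negative difference, as did the brightest set of each gene, and 5 of them were called lower. In 5 of the 7 the fall was larger than at the brightest set. For Ifit2 the second set read 34.7 and 45.3 against 105.9 and 153.3, a difference of -1.68 where the brightest gave -0.62. For Adar the sets differed by -0.47, -0.75 and -1.28 from brightest to dimmest. The 3 sets of Dhx58 differed by -1.45, -1.86 and -1.41. The second sets of Parp14 (-0.71, adjusted p = 0.0689) and Cmpk2 (-0.54, adjusted p = 0.306) had the same sign but were not called. Further sets of Mx2 and Igtp lay below the filter on all 4 arrays and were not tested. Mx2 read 6.2 and 7.7 against 0.6 and 6 there, and Igtp 12 and 21.2 against 10.3 and 14.2. Their differences on the floored scale were positive, 0.09 and 0.4. Which part of a transcript each set reads is not known here, and the larger 3′ to 5′ difference of beta-actin and GAPDH in the DRlyp/lyp pool accompanied these values.

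**Figure D4:**
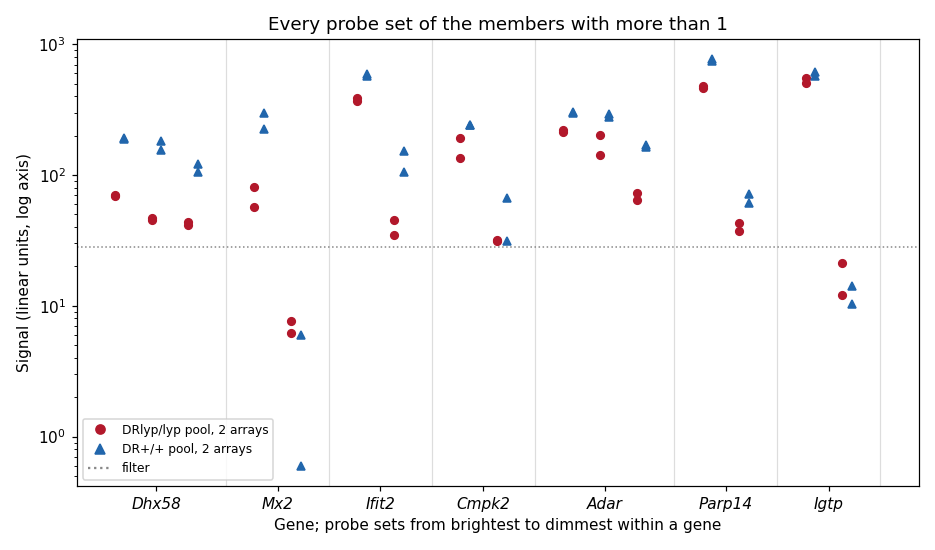
Signal on each array (log axis, linear signal units) of all 16 probe sets of the 7 members that have more than 1, from brightest to dimmest within a gene, with red circles for DRlyp/lyp and blue triangles for DR+/+ arrays. The dotted line is the filter of 28.3, and the dimmest sets of Mx2 and Igtp lie below it.

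Some members lie next to each other in the RefSeq gene order of the GRCr8 assembly. Ifit2 and Ifit3 are neighbours and differed by -0.62 and -1.44. Parp9, Dtx3l and Parp14 follow each other and differed by -0.53, -0.39 and -0.69, all called lower. Rsad2 and Cmpk2 are neighbours with -0.47 and -0.58, of which the second passed the test. Mx1 and Mx2, with 1 gene between them, differed by -0.53 and -1.92, and Ifitm2 and Ifitm3, also with 1 gene between, by 0.61 and -0.38. Whether the difference of 1 gene of a pair exceeds that of the other was not tested.

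Genes that lead to interferon and carry its signal were called in both directions. Of 52 listed, 39 had a probe set and 33 were tested, of which 13 were called lower (39.4%, against 21.1% of all genes) and 6 higher (18.2%, against 20.9%), with a median log2 difference of -0.08. Fewer pathway genes were called lower with either DRlyp/lyp array dropped, but calls over all genes were fewer too. Such a fit leaves 1 array in that pool. With no filter 4 were lower and 0 higher, where 3.71% and 3.62% of all genes were called. Without the intensity trend 9 were lower and 1 higher, where 12.7% and 11.9% of all genes were. None of the 3 interferon genes with a probe set, Ifnb1, Ifng and Ifnk, reached the filter on any array. Their highest signal was 9, on a DR+/+ array of Ifng.

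Of the 8 receptors and Janus kinases tested, 1 was called lower and none higher, against 21.1% and 20.9% of all genes. Ifngr1, a chain of the interferon gamma receptor, differed by 0.02 (interval -0.10 to 0.14), and Ifnar2, a chain of the type I receptor, by 0.04 (-0.24 to 0.32). The other, dimmer probe set of Ifnar2 was called lower (-0.58, adjusted p = 0.0342). Further sets of Jak1 and Ifnar1 are given under the other observations. Jak2, a kinase of the gamma receptor, was lower at 98.2 and 101.1 against 152.4 and 151.5 (-0.61, adjusted p = 0.0219). Its adjusted p was 0.129 and 0.104 with DRlyp/lyp replicates 1 and 2 dropped, and 0.0515 with DR+/+ replicate 1 dropped.

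Of 7 STAT and IRF transcription factors tested 4 were called lower and 1 higher (all genes, 21.1% and 20.9%). Irf8, a factor of myeloid and B cells, read 1125.5 and 1022.7 against 1752 and 2001.4 (-0.80, adjusted p = 2.81e-05). Irf7, the master regulator of type I interferon genes, read 761.6 and 728 against 1070.8 and 1037.9 (-0.50, adjusted p = 0.000729). Irf1 was lower by 0.42 in size (log2 difference -0.42, adjusted p = 0.00104), and Irf3, which starts the first interferon transcription, was higher (0.37, adjusted p = 0.0015, and 0.26 with 0.0534 under median centring). The pools did not overlap for any of these 4 genes.

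Upstream, 6 of 12 sensing receptors, adaptors and kinases were called lower and 2 higher (all genes, 21.1% and 20.9%). The endosomal RNA receptors Tlr7 and Tlr8 differed by -0.71 and -0.74 (adjusted p = 0.000358 and 0.000364) and Ticam1, the adaptor TRIF, by -0.78 (adjusted p = 0.0105). Ticam1 missed the threshold with either DRlyp/lyp array dropped (0.0567 and 0.0879 for replicates 1 and 2). Traf3, an adaptor of the interferon branch, was higher by 0.45 (adjusted p = 0.00276, and 0.0599 when DRlyp/lyp replicate 1 was dropped), and Unc93b1, which carries receptors to the endosome, by 0.19 (adjusted p = 0.0218). Unc93b1 was not called when DRlyp/lyp replicate 1 (0.0779), DRlyp/lyp replicate 2 (0.153) or DR+/+ replicate 1 (0.123) was dropped. It was not called under quantile normalization (0.0702) or median centring either, where its difference was 0.07 (adjusted p = 0.549).

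Restraints on interferon signalling were called lower in 2 and higher in 3 of 6 cases (all genes, 21.1% and 20.9%). Pias4, an inhibitor of STAT activity, read 71.3 and 105.4 against 200.5 and 167.5 (-1.08, adjusted p = 0.0026), and the phosphatase Ptpn6, or SHP-1, 1653.6 and 1608.6 against 2585.5 and 2815.9 (-0.73, adjusted p = 1.02e-05). Higher were the phosphatases Ptpn11 (0.75, adjusted p = 0.000107) and Ptpn2 (0.48, adjusted p = 0.000762) and the STAT inhibitor Pias1 (0.54, adjusted p = 0.00559). Pias1 missed the threshold when DRlyp/lyp replicate 1 was dropped (0.33, adjusted p = 0.117). It also missed it when DR+/+ replicate 2 was (0.42, adjusted p = 0.0685). Averaging all tested probe sets of a gene ended the calls for Pias1 (0.19, adjusted p = 0.214) and Ptpn11 (0.40, adjusted p = 0.0968). Their second sets differed by -0.17 and 0.04. The second sets of Ptpn2 and Traf3 failed the filter and were not tested. Both DRlyp/lyp arrays were lower there, at 10.8 and 6.7 against 16.7 and 21.2 for Ptpn2. For Traf3 the values were 9 and 15.6 against 32.5 and 26.2. Socs1 and Socs3, feedback inhibitors, were not tested.

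**Figure D5:**
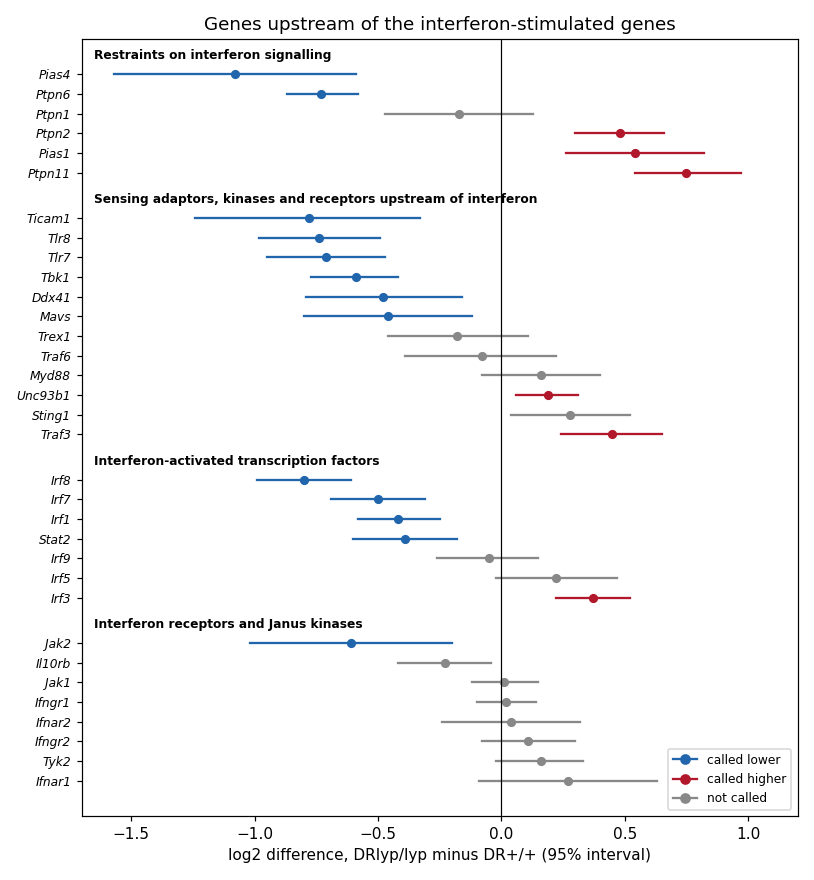
Log2 difference, DRlyp/lyp minus DR+/+, with its 95% interval for the 33 tested genes of interferon sensing and signalling, by role. Blue marks the 13 called lower, red the 6 called higher and grey the 14 not called, and genes called lower occur in each of the 4 roles and genes called higher in 3.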

How the data were processed

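The authors deposited 1 linear intensity for each probe set on each of the 4 arrays. How it was summarised and scaled is not given in the sources used here, and the arrays share a trimmed mean of 150.1, so the values were kept as deposited. About 50 ng of pooled RNA was amplified in 2 cycles, per the series' design text.

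Of 31099 probe sets, 57 controls were left out. Values under 6.8, the 25th percentile over all arrays, were raised to it before log2. A probe set was kept where 2 or more arrays exceeded 28.3, the median over all arrays. The 16068 kept were tested for DRlyp/lyp minus DR+/+ with limma 3.58.1 in R 4.3.3 (lmFit, eBayes with an intensity trend, 2 residual degrees of freedom, two-sided). Benjamini-Hochberg adjustment ran over all of them, with a threshold of 0.05. Folds are on the floored scale. The fit was tested on simulated data. Figures used matplotlib 3.10.9 in Python 3.11.15.

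Gene names came from the platform annotation (20826 probe sets with 1 symbol, 436 with several, 9780 with none), and the 36 members' Entrez numbers were all in the RefSeq table. Each gene was read from the brightest of its tested probe sets. The members, the pathway lists and the marker lists were chosen with earlier results of these data known. Every member is named. Values on each array are given for called members past 1 on the log2 scale and those called higher, and otherwise where they help, and up to 3 called genes each way per pathway list are named. Isg15, Ifih1, Rsad2 and Ifitm3 were given by array after their values were seen.

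The alternatives were quantile normalization, median centring, no filter, a stricter filter (75th percentile), a lower floor (10th percentile), an offset of 50, a replicate block, each array left out, no intensity trend and averaging the probe sets of each gene. The replicate numbers were not taken to pair the arrays, since the duplicates of different pools are separate amplifications.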

Additional observations from a re-analysis of the deposited data

How the results depend on the processing

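The members called lower numbered 5 with no filter on dim probe sets and 12 without the intensity trend, against 20, and those called higher 1 with no filter, against 2. Every other alternative that kept all 4 arrays gave 18 to 23 lower and 2 higher. Under those, 20.9% to 28.4% of all genes were called lower and 14.4% to 27% higher. Under the filter at the 75th percentile only 28 members were tested. The pathway genes called lower numbered 4 with no filter and 8 to 14 with an array left out, against 13, and those called higher 0 with no filter, 1 without the trend and 3 to 6 with an array left out, against 6. Of all genes, 3.71% were called lower and 3.62% higher with no filter, against 21.1% and 20.9%. Without the trend these shares were 12.7% and 11.9%. With any array left out, fewer of all genes were called in each direction, and such a fit leaves 1 array in a pool. Whether the members or pathway genes lost more calls than all genes did was not tested. The members' median was -0.58 with median centring, which moved the median of all genes by -0.11, and -0.38 to -0.52 with an array left out. Dhx58, Ifit2, Parp14, Gbp2 and Ifi35 kept their call under every alternative run.

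The sign turned for Zbp1, Oas1a, Oasl, Isg20, Isg15 and Ifi44, which were not called, and none was called there. With median centring Zbp1 was -0.01, Isg20 -0.07, Isg15 -0.06 and Ifi44 -0.07. With an array left out Oas1a ranged from -0.53 to 0.01, Oasl from -0.02 to 0.37, Isg20 from -0.05 to 0.14 (-0.01 without DR+/+ replicate 2) and Isg15 from -0.03 to 0.13. With the replicate number as a replicate block 21 members were lower, 20 of them those called without it and the other Rsad2 (-0.47, adjusted p = 0.0127), and 2 higher. The deviations of same-numbered arrays correlated at 0.0438 over 16068 probe sets. The cause of the lower counts was not tested. Signal near the filter limits Herc6 and Ifih1, and with 2 arrays of 1 pool no spread between animals can be had.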

Other observations

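Several genes of interferon reception had a bright probe set with nearly equal signal and a dimmer one that was called lower. Jak1, the kinase shared by the interferon receptors, differed by 0.01 at its brightest set and by -0.86 (limma adjusted p = 0.002) at the other, which read 156.6 and 141.8 on the DRlyp/lyp arrays and 306.4 and 237.7 on the DR+/+ arrays. Irf9, the DNA-binding part of the type I interferon complex, differed by -0.05 at the brightest and -0.47 (adjusted p = 0.00644) at the other set. Ifnar2 differed by 0.04 and -0.58 (adjusted p = 0.0342). The 6 sets of Ifnar1 ranged from -1.14 (adjusted p = 0.00272) to 0.52 (adjusted p = 0.0597). In contrast, the sets of Stat2 gave -0.39 and -0.34, both called. These genes were picked after their values were seen, and what part of the transcript each set reads is not known here.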
